A study of Mus musculus with 15 samples.

Results

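A set of 8 transport and barrier genes of brain capillaries were followed across healthy brain and GL261 glioma: Abcb1a, Abcg2, Abcc4, Slco1a4, Slco1c1, Mfsd2a, Slc22a8 and Lsr. They were taken as a named list, 8 of the 24717 annotated genes that carried a transcript in some library. RNA sequencing covered 15 mouse libraries in 5 groups of 3. The groups were healthy brain of C57BL/6 mice, and tumors grown in C57BL/6 mice from GL261, a mouse glioma line, either untreated (0 µg) or given 50, 100 or 200 µg per dose of the VEGF-A blocking antibody B20.4.1.1. VEGF-A drives the growth of blood vessels. The antibody was given every 3 days from day 10 of tumor growth to the endpoint, and tissue was collected after perfusion with saline. All tumor groups come from the same line, and libraries are bulk tissue. Groups follow the sample titles, and the agent tag of 4 tumor libraries, replicate 3 of each tumor group, disagreed with them. Nothing in the labels ties the samples of a group to separate litters or batches, so the spread behind the p-values may be technical.

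The wall of brain capillaries is sealed by tight junctions, and its endothelial cells carry pumps and carriers that decide which molecules cross. The ATP-driven efflux pumps P-glycoprotein (Abcb1a in mice), the breast cancer resistance protein (Abcg2) and the multidrug resistance protein MRP4 (Abcc4) return many drugs to the blood. Slco1a4 and Slco1c1 are organic anion carriers, the latter known for thyroxine uptake, and Slc22a8 (OAT3) is an organic anion exchanger also found in choroid plexus. Mfsd2a carries lysophospholipids with docosahexaenoic acid and restrains transcytosis, and Lsr (angulin-1) seals tricellular junctions.

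Values are FPKM (fragments per kilobase of transcript per M mapped fragments), summed for a gene over its transcripts where each counts in proportion to the part of the exons it covers. The mean coverage per base listed for 1 FPKM, a measure of depth, was 6.10 to 22.1 in brain, 6.94 to 7.37 in untreated tumor, 7.15 to 8.42 at 50 µg, 8.90 to 9.23 at 100 µg and 9.45 to 13.2 at 200 µg, so depth was higher at 100 and 200 µg than in untreated tumor. Genes listed only in pieces have 2 or more transcripts and none covering 25% of the exonic length. Their share was 4.57 to 16.6% in brain and 7.38 to 7.85% in untreated tumor. It was 7.02 to 12.6% at 50 µg, 5.78 to 6.91% at 100 µg and 5.48 to 5.92% at 200 µg. The part of depth and of this listing in the differences from brain and between doses below was not tested.

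The 250 bases before a RefSeq start of 4 of the genes (GRCm38.p6, the mm10 coordinates) are shown, a choice among the genes with an estimate in each fit. Slco1c1 and Slc22a8 also changed and are not shown. For Abcg2, both starts from which transcripts were listed are shown. Abcc4 has a further RefSeq start 29.3 kb after the one shown, from which no library listed a transcript. Abcg2 has a further RefSeq start 12.1 kb before the upstream one shown, from which no library listed a transcript. All 8 genes matched the RefSeq promoter table. Capitals mark matches, on either strand, to 5 motifs: the TCF/LEF core TCAAAG of Wnt signalling, the ETS motif CCGGAAG of endothelial factors, the hypoxia response core ACGTG, the aryl hydrocarbon receptor core GCGTG and the antioxidant response motif TGACNNNGC. The palindrome formed by the hypoxia core counts on both strands.
Abcb1a upstream start, chr5:8566841-8567090, plus strand: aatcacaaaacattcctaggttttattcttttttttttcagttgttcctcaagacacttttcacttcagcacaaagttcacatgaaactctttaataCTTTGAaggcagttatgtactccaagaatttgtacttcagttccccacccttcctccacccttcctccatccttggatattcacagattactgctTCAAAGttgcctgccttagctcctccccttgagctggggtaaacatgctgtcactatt
Abcg2 upstream start, chr6:58596422-58596671, plus strand: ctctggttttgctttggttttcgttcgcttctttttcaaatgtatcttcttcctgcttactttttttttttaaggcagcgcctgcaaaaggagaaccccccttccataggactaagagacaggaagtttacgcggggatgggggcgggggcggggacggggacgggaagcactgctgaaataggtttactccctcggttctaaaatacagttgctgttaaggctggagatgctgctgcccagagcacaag
Abcg2 downstream start, chr6:58640296-58640545, plus strand: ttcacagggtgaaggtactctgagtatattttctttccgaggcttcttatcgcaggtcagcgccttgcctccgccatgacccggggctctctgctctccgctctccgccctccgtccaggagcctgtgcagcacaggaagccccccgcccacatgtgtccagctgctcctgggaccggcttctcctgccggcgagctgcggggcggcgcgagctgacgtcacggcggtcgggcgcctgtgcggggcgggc
Abcc4, chr14:118706220-118706469, minus strand: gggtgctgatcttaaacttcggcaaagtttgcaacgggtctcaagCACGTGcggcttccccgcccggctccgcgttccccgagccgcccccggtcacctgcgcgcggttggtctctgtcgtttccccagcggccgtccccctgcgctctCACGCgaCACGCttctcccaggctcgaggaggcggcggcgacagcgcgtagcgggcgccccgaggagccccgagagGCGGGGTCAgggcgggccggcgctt
Slco1a4, chr6:141856221-141856470, minus strand: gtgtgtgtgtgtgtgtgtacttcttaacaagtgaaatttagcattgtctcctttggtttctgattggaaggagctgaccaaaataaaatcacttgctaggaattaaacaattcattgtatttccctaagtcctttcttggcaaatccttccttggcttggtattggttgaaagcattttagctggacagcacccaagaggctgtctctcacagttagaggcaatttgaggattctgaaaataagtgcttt
The Abcb1a window held 2 matches to the TCF/LEF core, a motif present in 13.8% of 32851 RefSeq promoters searched the same way. The Abcc4 window held 2 hypoxia core matches (16.6% of promoters), 2 aryl hydrocarbon receptor core matches (28.2%) and 1 antioxidant match (10.2%). Neither Abcg2 window nor the Slco1a4 window held these letters, and no window shown held the ETS motif, which 6.91% of promoters hold. Among RefSeq windows not shown, those of Slco1c1 and Slc22a8 held no match, and that of the further Abcc4 start held 1. Mfsd2a and Lsr, called in no comparison, held 5 and 3 matches, so matches did not follow the calls. A match is a description of letters and not a binding site.

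Untreated tumor differed from healthy brain in 5 of the 8 genes: Abcb1a, Slco1a4, Slco1c1 and Slc22a8 were lower and Abcc4 was higher, while Abcg2, Mfsd2a and Lsr did not pass the test. This was tested with limma over all 16089 genes with a mean of at least 1 FPKM in the 6 libraries, and called at an adjusted p under 0.05. Slco1a4, Slco1c1 and Slc22a8 averaged 0.33, 0.47 and 0 FPKM in untreated tumor. They passed this filter only through brain, so genes this low in tumor enter the test only where brain is high. In this comparison 61.1% of all genes were called, 32.8% higher and 28.4% lower, so 5 of 8 is near the background share. The median log2 change was -0.83 over the 8 genes and 0.12 over all genes. Rescaling the libraries moved the median of all genes to -0.07.

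Among the pumps, Abcb1a (chromosome 5, 8660077 to 8748575, mm10, GENCODE M21) stood at 7.31, 4.86 and 4.76 FPKM in brain and at 1.45, 1.39 and 1.37 FPKM in untreated tumor. The groups did not overlap, and all 12 tumor libraries lay below the lowest brain library. The change was -1.45 on the log2(FPKM + 1) scale (SE 0.19, limma adjusted p = 0.000773, n = 3 and 3). The highest brain value includes 2.30 FPKM from a transcript of 237 bp, and is 5.01 FPKM without it. Abcb1a shares exon sequence with the annotated gene Gm42686, and reads may be shared with its close copy Abcb1b, so its level is uncertain. Transcripts that also covered Gm42686 gave 58.38, 78.9 and 100% of the Abcb1a value in brain and 65.55, 46.55 and 30.69% in untreated tumor. At 100 and 200 µg they gave 100% in every library.

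Abcb1b, the other gene for mouse P-glycoprotein, went the opposite way. It was listed at 0.016, 0.14 and 0.63 FPKM in brain and at 2.25, 1.75 and 2.10 FPKM in untreated tumor, a log2 change of 1.29 (SE 0.22, limma adjusted p = 0.00243). It was singled out after its values were seen, and the difference between the changes of the paralogs was not tested. Its brain values were all under 1 FPKM, so Abcb1b passed the filter through the untreated tumors.

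Abcg2 (chromosome 6, 58584523 to 58695676) was listed at 2.30, 1.44 and 2.45 FPKM in brain and 2.87, 2.57 and 2.25 FPKM in untreated tumor. These ranges overlap, and the log2 change of 0.23 (SE 0.19) did not pass the limma test (adjusted p = 0.323). Abcc4 (chromosome 14, 118482692 to 118706219) stood at 2.23, 1.64 and 2.05 FPKM in brain against 4.01, 4.28 and 3.73 FPKM in untreated tumor. Its groups did not overlap, and the log2 change was 0.76 (SE 0.15, limma adjusted p = 0.00496). The call depends on how a gene's value is made: with a plain sum of FPKM, which counts every short piece in full, the change was -1.25 with an adjusted p of 0.0796 in limma, and Abcb1a was no longer called (adjusted p = 0.198).

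Of the 7 genes with a fold, the organic anion carriers Slco1a4 and Slco1c1 had the widest gaps. Slco1c1 (chromosome 6, 141524368 to 141570177) was listed at 10.20, 9.72 and 10.59 FPKM in brain and at 0.91, 0.19 and 0.31 FPKM in untreated tumor, a log2 change of -2.95 (SE 0.21, limma adjusted p = 6.32e-05). Every tumor library, treated ones included, was below every brain library, and the highest was 1.90 FPKM. Slco1a4 (chromosome 6, 141805440 to 141856199) was listed at 4.11, 7.83 and 12.15 FPKM in brain and at 0.60, 0.39 and 0 FPKM in untreated tumor, a log2 change of -2.69 (SE 0.38, limma adjusted p = 0.0011). Brain libraries spread widely for this gene, yet none reached the untreated range. Slco1a4 belongs to a cluster of similar carriers, so reads may be shared among them.

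Slc22a8 (chromosome 19, 8591254 to 8611835) was listed at 3.27, 4.29 and 3.44 FPKM in brain and at 0 in all 3 untreated tumors, and limma called it lower (adjusted p = 4.88e-05). No fold is given against a group listed at 0. Slc22a8 passed the filter of 1 FPKM through brain alone, and its untreated libraries, all at 0, add no spread to the test. Choroid plexus, where Slc22a8 is also found, was unevenly present in the brain libraries: the summed level of 10 choroid plexus markers was 585, 13.6 and 1298 FPKM, and 7 of the 10 were listed at 0 in replicate 2. Slc22a8 was highest, at 4.29 FPKM, in that same replicate.

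Mfsd2a (chromosome 4, 122946850 to 122961188) had overlapping ranges, with 4.68, 6.15 and 5.13 FPKM in brain and 6.65, 5.90 and 4.41 FPKM in untreated tumor. Its log2 change was 0.07 (SE 0.19, limma adjusted p = 0.785). Transcripts that also ran over the neighbour 4933421A08Rik gave 0% of the Mfsd2a value in each brain library. They gave 0, 100 and 11.74% in untreated tumor and 44.69, 30.51 and 30.53% at 200 µg, so Mfsd2a values are uncertain too. Lsr (chromosome 7, 30957770 to 30973464) was listed at 2.46, 9.27 and 7.16 FPKM in brain and at 3.26, 10.24 and 2.83 FPKM in untreated tumor, and its log2 change of -0.22 did not pass (limma adjusted p = 0.756). Lsr values are uncertain, since its exons overlap Gm17077 and Gm4673 and in 9 of the 13 libraries that list it 91.4 to 100% of the value came from transcripts that also ran over the neighbour Usf2.

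**Figure D1:**
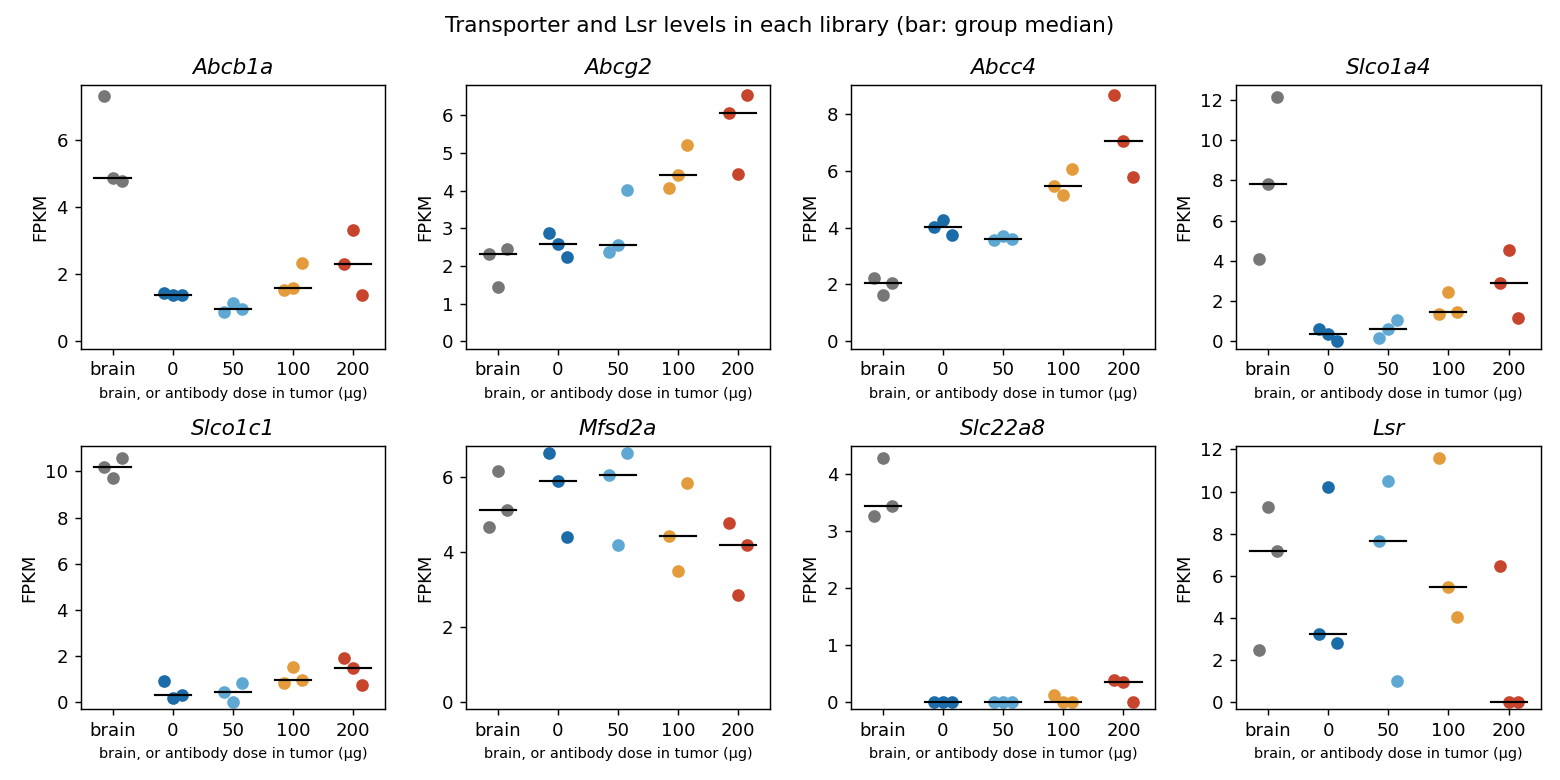
FPKM of the 8 genes (vertical axes) in each library, grouped as brain and tumor at 0, 50, 100 and 200 µg per dose (horizontal axes), with points for libraries and a bar for the group median. Abcb1a, Slco1c1 and Slc22a8 sit below every brain library in all 12 tumors, while Abcg2 and Abcc4 are highest at 200 µg.

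RNA of cell type markers differed between the tissues. All 10 astrocyte and all 10 neuron markers tested were lower in untreated tumor by limma, and the astrocyte connexin Gjb6 was listed at 0 in all 12 tumors. Of all genes tested, 32.8% were called higher and 28.4% lower. The 20 endothelial genes summed to 48.9 to 68.2 FPKM in brain and 88.0 to 102 FPKM in untreated tumor, with 5 of 19 tested genes called higher and 2 lower by limma. The gap between these sums rests on Nos3, the endothelial nitric oxide synthase, at 2.32 to 3.74 FPKM in brain and 19.7 to 33.7 FPKM in untreated tumor. Without Nos3, a choice made after seeing the data, the sums were 46.5 to 65.3 and 54.7 to 82.4 FPKM and overlapped. In bulk tissue, fewer cells of a type and less RNA per cell cannot be told apart.

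Set against the endothelial sum of the same library, Abcb1a amounted to 8.49 to 10.7% in brain and 1.42 to 1.57% in untreated tumor. Slco1c1 amounted to 14.9 to 21.7% in brain and 0.21 to 0.89% in untreated tumor, and Slco1a4 to 6.03 to 24.9% and 0 to 0.59%. Abcg2, in contrast, amounted to 2.52 to 5.02% in brain and 2.55 to 2.91% in untreated tumor, ranges that overlap. Abcc4 ranged from 2.86 to 4.19% in brain and from 3.93 to 4.85% in untreated tumor, which overlap, but with Nos3 left out of the sum they were 3.06 to 4.40% and 4.86 to 7.84% and did not. Without Nos3, Abcb1a was at 9.08 to 11.2% in brain and 1.75 to 2.54% in untreated tumor.

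Other transport and barrier genes of untreated tumor gave mixed counts, from lists chosen with earlier results known. In this comparison with brain, 61.1% of all genes were called, 32.8% higher and 28.4% lower, so several of these counts are near or below background. Of 8 tested other ABC pumps, 3 were called higher and 3 lower by limma, among them Abcc1 at 0.89 log2, the cyclic nucleotide exporter Abcc5 at -2.79 and the lipid exporters Abcg1 and Abcg4 at -1.89 and -3.39. Of 6 tested other organic anion and cation carriers, Slc22a4, an ergothioneine carrier, was higher (1.40) and Slco3a1 (-1.73) and Slc22a17 (-2.96) were lower. Of 13 nutrient carriers and receptors, 6 were higher and 1 lower. They included the glucose carrier Slc2a1 (2.79) and the amino acid carriers Slc7a5 (1.89) and Slc7a1 (1.77). Of 8 genes of thyroid hormone supply and response, 6 were lower and none higher, including the thyroid hormone receptor gene Thrb (-2.73). Of 9 junction genes, the angulin-family gene Ildr2 (-3.49), Jam2 (-1.29) and Ocln (-1.04) were lower and none was higher. Of 7 caveola and fenestra genes, 5 were higher, among them Ehd2 (1.73), Cavin3 (1.78), Cav1 (2.46) and Cav2 (1.84), and 1 was lower.

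Under the antibody, Abcg2 and Abcc4 were higher at 200 µg, and Abcg2, Abcc4 and Slco1a4 rose with dose across the 12 tumors, while none of the tested genes was called lower. Both 200 µg calls lie just under the threshold and are lost under most other settings. With left-out libraries included, 15 of 23 alternatives lost the call of Abcg2 and 14 of 23 that of Abcc4. At 200 µg, limma called 2 of the 6 tested genes, against 2.99% of all 14442 genes tested (2.13% higher, 0.866% lower), with a median log2 change of 0.56 over the 6 and 0.03 over all. In the dose trend it called 3 of 6, against 7.89% of all genes (5.28% higher, 2.61% lower), with medians of 0.34 and 0.03 per 100 µg. At 100 µg limma called 0 of 6 (background 0.0831%, 0.0692% higher and 0.0138% lower). There, 3 of the 6 and 1310 of all genes had an unadjusted p under 0.05. At 200 µg, 3 of the 6 and 3367 of all genes did. At 50 µg it called 0 of 6 (background 0%), with 0 of the 6 and 579 of all genes at an unadjusted p under 0.05. Slco1c1 and Slc22a8 averaged under 1 FPKM in tumors and were not tested. Slco1a4 averaged 0.33 FPKM untreated, 0.60 FPKM at 50 µg, 1.76 FPKM at 100 µg and 2.85 FPKM at 200 µg. It passed the filter of 1 FPKM only through the 100 and 200 µg groups. Genes this low untreated enter the tumor fits only where a dose group is high, which limits its part in the 3 of 6. The 3 doses share the untreated libraries.

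Abcg2 was listed at 2.87, 2.57 and 2.25 FPKM untreated, 2.37, 2.55 and 4.02 FPKM at 50 µg, 4.07, 4.40 and 5.21 FPKM at 100 µg and 6.05, 4.44 and 6.55 FPKM at 200 µg. The 100 and 200 µg libraries all lay above the untreated ones, and overlapped each other. Group means were 2.56 ± 0.31 FPKM untreated and 5.68 ± 1.10 FPKM at 200 µg (SD, n = 3 each), a log2 change of 0.90 (SE 0.20, limma adjusted p = 0.0421). The trend was 0.47 per 100 µg (SE 0.095, limma adjusted p = 0.0156). At 100 µg the log2 change of 0.64 did not pass (limma adjusted p = 0.337).

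Abcc4 was listed at 4.01, 4.28 and 3.73 FPKM untreated, 3.57, 3.70 and 3.61 FPKM at 50 µg, 5.45, 5.13 and 6.06 FPKM at 100 µg and 8.67, 7.04 and 5.79 FPKM at 200 µg. The order of group medians was 200, 100, 0 and 50 µg, and only the upper pair overlapped. Group means were 4.01 ± 0.28 FPKM untreated and 7.16 ± 1.45 FPKM at 200 µg (SD, n = 3 each), a log2 change of 0.69 (SE 0.16, limma adjusted p = 0.0451). The trend was 0.40 per 100 µg (SE 0.084, limma adjusted p = 0.0184), and at 100 µg the log2 change of 0.39 did not pass (adjusted p = 0.508).

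These calls rest on few libraries. With each of the 12 tumor libraries left out in turn, Abcg2 and Abcc4 each lost the 200 µg call in 9 fits. Slco1a4 became called at 200 µg in 3. Leaving out any untreated library, 50 µg replicate 2, 100 µg replicate 1 or 2, or 200 µg replicate 1 or 2 left none of the genes called at 200 µg by limma, and leaving out 50 µg replicate 1 left Abcg2 alone. The plain FPKM sum also left none called at 200 µg and none in the trend. A model term for 4 libraries that list few genes in pieces (100 µg replicate 3 and the 200 µg group) gave the same, and it left no gene of all 14442 called in the trend. This term covers the whole 200 µg group, and only 100 µg replicate 3 sets it apart from that dose. It therefore cannot separate dose from listing, and a loss of calls under it was close to fixed by its make-up. Without 200 µg replicate 1 no member was called in the trend, and without 200 µg replicate 2 only Abcg2 was.

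Slco1a4 was listed at 0.60, 0.39 and 0 FPKM untreated, 0.15, 0.60 and 1.04 FPKM at 50 µg, 1.38, 2.47 and 1.44 FPKM at 100 µg and 2.89, 4.52 and 1.15 FPKM at 200 µg. All 100 and 200 µg libraries lay above all untreated and 50 µg ones, and 1 of them, at 4.52 FPKM, reached the brain range. The trend was 0.77 per 100 µg (SE 0.17, limma adjusted p = 0.0204), and the 200 µg change of 1.46 (SE 0.35) missed the threshold at an adjusted p of 0.0530. Slco1c1, not tested, was listed at 0.91, 0.19 and 0.31 FPKM untreated and at 1.90, 1.49 and 0.74 FPKM at 200 µg, ranges that overlap. Slc22a8 was listed at 0 in 9 of the 12 tumors, with 0.12 FPKM in 1 library at 100 µg and 0.39 and 0.35 FPKM in 2 at 200 µg.

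Abcb1a was listed at 0.87, 1.13 and 0.95 FPKM at 50 µg, 1.53, 1.57 and 2.33 FPKM at 100 µg and 2.32, 3.32 and 1.39 FPKM at 200 µg. The 200 µg libraries overlapped the untreated ones through replicate 3, and neither the log2 change of 0.44 (limma adjusted p = 0.242) nor the trend of 0.28 per 100 µg (adjusted p = 0.128) passed. Mfsd2a was listed at 6.06, 4.20 and 6.65 FPKM at 50 µg, 4.43, 3.49 and 5.84 FPKM at 100 µg and 4.77, 2.87 and 4.18 FPKM at 200 µg, with a log2 change of -0.43 at 200 µg (limma adjusted p = 0.292). Lsr ran from 1.01 to 11.60 FPKM at 50 and 100 µg, and was listed at 6.45, 0 and 0 FPKM at 200 µg. In those 2 libraries at 0 the neighbour Usf2 was at 15.9 and 13.5 FPKM. The log2 change of Lsr at 200 µg, -1.54, did not pass (limma adjusted p = 0.304).

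**Figure D2:**
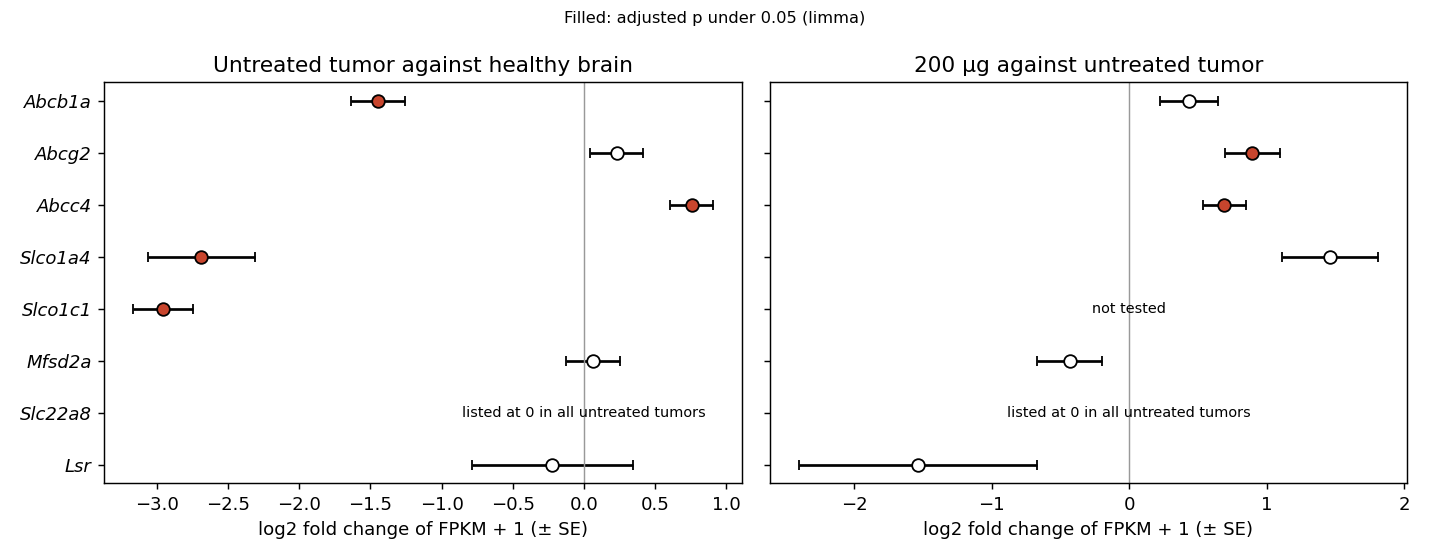
Log2 fold change of FPKM + 1 with its SE (horizontal axes) for each gene (vertical axis), in untreated tumor against brain and in 200 µg against untreated tumor, from limma. Filled points passed an adjusted p of 0.05: Abcb1a, Slco1a4, Slco1c1 and Abcc4 on the left, Abcg2 and Abcc4 on the right; Slc22a8, called lower on the left, has no fold because it is listed at 0 in untreated tumor.

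The endothelial sum of the tumors was 88.0 to 102 FPKM untreated, 74.1 to 79.6 FPKM at 50 µg, 70.9 to 76.7 FPKM at 100 µg and 72.3, 75.9 and 37.5 FPKM at 200 µg. Of 18 tested endothelial genes limma called none at 200 µg, with 4 at an unadjusted p under 0.05, and 15 had negative estimates (median -0.30). Over all 14442 genes tested at that dose, 3367 had an unadjusted p under 0.05. Abcg2 as a share of the endothelial sum was 2.55 to 2.91% untreated, 3.05 to 5.42% at 50 µg, 5.74 to 6.79% at 100 µg and 5.85 to 17.5% at 200 µg. Abcc4 went from 3.93 to 4.85% untreated to 7.07 to 7.90% at 100 µg and 9.27 to 15.4% at 200 µg. Abcb1a, whose FPKM ranges overlapped, was at 1.42 to 1.57% untreated and 3.20 to 4.37% at 200 µg, still below the 8.49% of the lowest brain library. Nos3 carries most of the fall in the sum, with 19.7 to 33.7 FPKM untreated and 7.59 to 9.94 FPKM at 200 µg. Without it the sums were 54.7 to 82.4 FPKM untreated, 52.4 to 63.8 FPKM at 100 µg and 63.4, 66.0 and 29.9 FPKM at 200 µg, ranges that overlap. The shares without Nos3 were 3.48 to 4.71% untreated and 6.73 to 21.9% at 200 µg for Abcg2, 4.86 to 7.84% and 10.7 to 19.4% for Abcc4, and 1.75 to 2.54% and 3.66 to 5.02% for Abcb1a. The low endothelial sum of 200 µg replicate 3, 37.5 FPKM, gives the highest shares of Abcg2 and Abcc4. A lower sum raises the share of any gene, and how many of all genes rose against it was not counted.

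**Figure D3:**
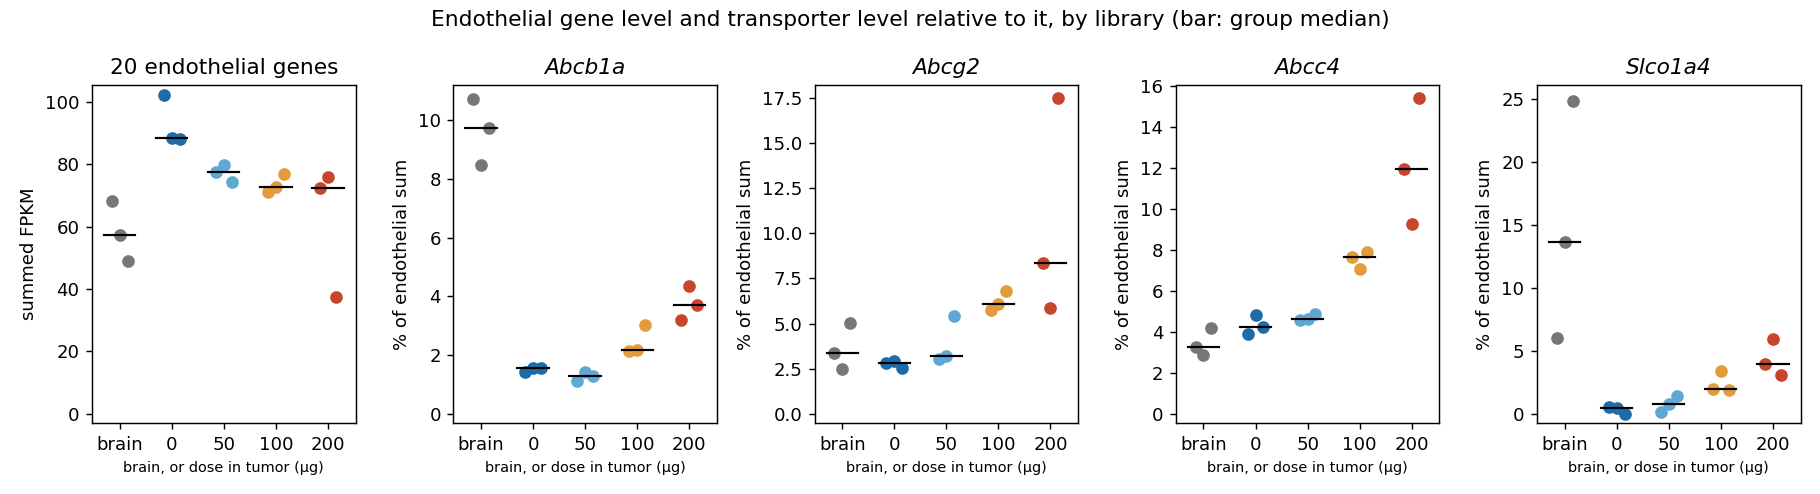
Summed FPKM of 20 endothelial genes (left) and the level of Abcb1a, Abcg2, Abcc4 and Slco1a4 as a percentage of that sum, for each library of brain and of tumor at 0, 50, 100 and 200 µg per dose, with a bar for the group median. The 4 transporters sit above the untreated range in all 100 and 200 µg libraries. Of the genes not drawn, Slco1c1 does so too, while Mfsd2a, Lsr and Slc22a8 overlap that range. The sum is lower in every treated group, and the share of all genes that rise against it was not counted. Nos3 is part of the sum, at 19.7 to 33.7 FPKM untreated and 7.59 to 9.94 FPKM at 200 µg.

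Some markers of other cells were lower at 200 µg. Of all 14442 genes tested there, limma called 2.99% (2.13% higher, 0.866% lower), and 3367 had an unadjusted p under 0.05. The microglia list summed to 113 to 213 FPKM untreated and 35.7 to 57.1 FPKM at 200 µg, and limma called 1 of its 6 tested genes, Tmem119 (-3.91 log2), which was at 51.2 to 157 FPKM untreated and 3.95 to 7.42 FPKM at 200 µg. The oligodendrocyte list summed to 99.2 to 173 and 70.1 to 73.8 FPKM, with 2 of 9 tested genes called lower, Cldn11 (-2.09) and Mag (-0.83). Epithelial genes summed to 492 to 734 FPKM untreated and 76.3 to 256 FPKM at 200 µg, with 0 of 3 called and 3 at an unadjusted p under 0.05. The proliferation list (435 to 667 and 257 to 537 FPKM) and the macrophage list (77.8 to 224 and 208 to 283 FPKM) overlapped between these groups, and limma called 0 of 15 and 0 of 11 of their genes, with 7 and 0 at an unadjusted p under 0.05. The astrocyte gene Slc1a3 was called higher (1.00 log2, limma adjusted p = 0.0395), 1 of 5 tested in its list. The pericyte list summed to 32.6 to 56.4 FPKM untreated and 93.4, 92.3 and 34.8 FPKM at 200 µg. Limma called 0 of its 9 tested genes, with 1 at an unadjusted p under 0.05. The part of these cells in the 200 µg values of Abcg2 and Abcc4 was not tested. The choroid plexus gene Ttr was listed at 49.6, 44.2 and 3.54 FPKM untreated and at 0 in all 3 libraries at 200 µg. Limma called Ttr lower at 200 µg (adjusted p = 0.0359), 1 of 2 tested in its list.

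Single genes of several other lists were called higher at 200 µg by limma, where 2.13% of all 14442 genes tested were. They were Slc38a5 (1.65 log2, an amino acid carrier, 1 of 15 nutrient genes tested), Klf9 (1.01, a thyroid hormone response gene, 1 of 7), the claudin gene Cldn12 (0.92, 1 of 7 junction genes), Cavin2 (2.05, a caveola coat gene, 1 of 7) and Tspan12 (1.37, a co-factor of Norrin and frizzled signalling, 1 of 11 Wnt genes). In the thyroid list 1 of 7, Ttr, was called lower. None of 7 tested other ABC pumps and none of 5 other organic ion carriers was called at 200 µg by limma, with 1 of each at an unadjusted p under 0.05. That unadjusted p was reached by 3367 of all 14442 genes.

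Over the 12 tumors Abcg2 and Abcc4 correlated with r = 0.81 (Pearson, log2 scale), Abcc4 and Slco1a4 with 0.83, and Abcb1a and Abcc4 with 0.84, while Abcb1a and Abcg2 gave 0.54, as a description over libraries that share dose groups and depth. Mfsd2a gave -0.58 to -0.29 with the 3 pumps and Slco1a4, and Lsr gave -0.44 to -0.22. Among the genes tested, the closest to Abcg2 were Cdk17 (r = 0.95), Prkce and Pik3r1 (both 0.94), and to Abcc4 Susd6 (0.96), Mr1 (0.95) and Mfsd6 (0.95). Closest to Slco1a4 were Rragd (0.95), Fam19a2 (0.95) and Bcl2 (0.95), and to Abcb1a Ammecr1l (0.93), Heg1 (0.92) and Plekhm3 (0.92). Mfsd2a was closest to Plekhj1 (0.88), Nup35 (0.87) and Gm27597 (0.86), and Lsr to Gm9774 (0.91), Capn10 (0.88) and Zfp513 (0.85).

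The assembled transcripts also differed in where they began, counting spliced transcripts that start within 300 bp of an annotated start. For Abcb1a, the upstream start, whose promoter is shown above, lies 93.0 kb before the GENCODE start. Transcripts from it were listed in 8 of 12 tumors (all untreated and all 200 µg libraries, 50 µg replicate 2 and 100 µg replicate 3) and in brain replicate 2 at 2.82 FPKM. Transcripts from the GENCODE start were listed in brain replicate 3 alone, at 4.62 FPKM, and in 0 of 12 tumors. Brain replicate 1 had neither.

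For Abcg2, the upstream of the pair of starts shown lies 43.9 kb before the downstream one. It was listed in 11 of 12 tumors, up to 20.7 FPKM in 200 µg replicate 3, and in brain only in replicate 3 at 0.38 FPKM. The downstream start was listed in 2 of 3 brain and 9 of 12 tumor libraries, up to 11.7 FPKM. Transcripts from the Slco1a4 start were listed in 2 of 3 brain libraries, in untreated replicate 2 (0.85 FPKM), in none at 50 µg, and in all 6 libraries at 100 and 200 µg (1.99 to 7.94 FPKM). From the Slco1c1 start they were listed in all brain libraries (12.1 to 19.9 FPKM), in none of the untreated or 50 µg tumors, in 2 of 3 at 100 µg and in all at 200 µg (1.23 to 3.59 FPKM). A start is listed only where reads were dense enough to join, and depth differed with dose, so an absent start is not evidence that it was unused.

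**Figure D4:**
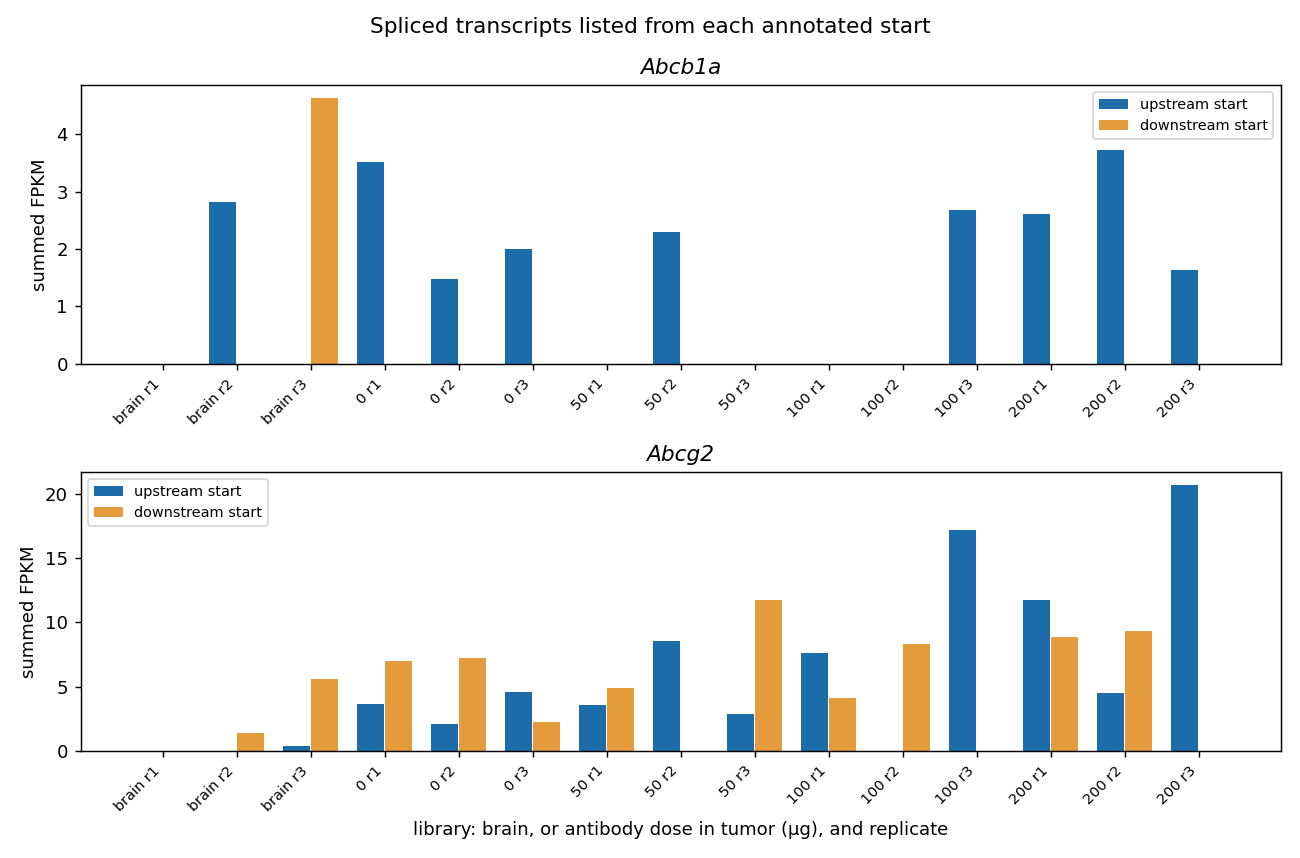
Summed FPKM (vertical axes) of spliced transcripts that begin at the upstream or downstream annotated start of Abcb1a and Abcg2, for each library (horizontal axis: brain, or dose in µg, and replicate). The downstream start of Abcb1a appears in brain replicate 3 alone, and the upstream start of Abcg2 in 11 of 12 tumors.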

How the data were processed

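RNA-seq was analysed in 15 libraries, 3 in each of 5 groups taken from the titles. For each library the authors deposited transcripts with FPKM, made with STAR, Cufflinks and the mm10 genome per the submitters' processing notes. Versions and the annotation used are not given in the sources used here. Each library was assembled apart, with no gene names, so an exact 0 can be a failed assembly.

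Transcripts were assigned to GENCODE M21 exons (55536 genes) with bedtools 2.31.1, ignoring strand. Single-exon transcripts under 200 bp, which include most of the very large FPKM values, were set aside. The length-weighted value was adopted from earlier work on these data, where it had replaced the plain FPKM sum after calls had been seen. The plain sum is therefore given as an alternative. limma 3.58.1 in R 4.3.3 tested log2(FPKM + 1), two-sided, trend and robust off, for genes with a mean of at least 1 FPKM, with Benjamini-Hochberg adjustment over all genes tested. That scale understates changes of low genes. Dose groups came from 1 fit of 12 tumor libraries, and the trend from another. The method was tested on simulated data.

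The 8 genes and all lists were chosen with earlier results of these data known. From each list, at most 4 called genes were named, taken from those with the smallest adjusted p, and, per tested gene, the 3 genes with the most similar pattern. Start-site counts, the use of coding length and the endothelial sum without Nos3 were chosen after seeing the data. Genes listed at 0 in some library are given by library values. Fragment counts are not in the files used, so no counting intervals are given. Alternatives were the plain sum, a pseudocount of 0.1 FPKM, no filter, rescaling, a replicate block, trend and robust on, regrouping by the agent tag, left-out libraries, a term for libraries with few genes in pieces, and coding length.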

Additional observations from a re-analysis of the deposited data

How the results depend on the processing

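Of 664 values of single genes under the alternatives, 584 kept their direction and side of the threshold, 44 were no longer called, 5 became called and 31 reversed, and none of the reversed values was called. In untreated tumor against brain, 5 genes were called under each alternative except the plain FPKM sum, which called 3. At 50 and 100 µg, 0 were called under every alternative. At 200 µg, 2 became 0 with the plain sum, the term for few genes in pieces and coding length (added after seeing the data), 1 with rescaling (Abcc4) and 1 with groups from the agent tag (Abcg2), and 0 to 3 when each library was left out in turn. In the dose trend, 3 became 0 with the plain sum and with the term for few genes in pieces, and 0 to 3 when each library was left out. That term nearly coincides with the 200 µg group, so the calls lost under it do not separate dose from listing. The cause was not tested.

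Replicate numbers did not pair the samples: deviations of same-numbered libraries correlated at -0.078 to 0.071. With the replicate block, 5, 0, 0, 0 and 3 genes were called in the 5 comparisons. Abcg2 and Abcc4 at 200 µg then had limma adjusted p of 0.0577 and 0.0738.

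Calls over all genes were 8768 to 9837 for tumor against brain with each library left out. The main counts were 0, 12, 432 and 1140 at 50, 100 and 200 µg and in the trend. The plain sum gave 1, 0, 13 and 374, coding length 1, 1, 208 and 620, the term for few genes in pieces 35, 34 and 0 in the last 3, the block 0 at 100 µg and 245 at 200 µg, and no filter 1 at 50 µg and 22 at 100 µg. A pseudocount of 0.1 gave 1 and the agent tag 3 at 50 µg. Without replicate 3 of every tumor group they were 1, 45, 905 and 669. Without 50 and 100 µg replicate 3, which earlier results showed apart from their groups, they were 55, 2384 and 2200 in the last 3. Leaving out each library in turn gave 0 to 8, 0 to 37, 24 to 1223 and 164 to 2039.

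Reversed estimates (log2) were these. With the plain sum they were Abcc4 -1.25 and Mfsd2a -0.34 against brain, Mfsd2a 0.60 and Lsr -0.092 at 50 µg, Abcb1a -0.59 and Lsr -0.067 at 100 µg, and Abcb1a -0.70 at 200 µg and -0.32 in the trend. Rescaling gave Mfsd2a -0.12 against brain and 0.058 at 50 µg, and the pseudocount of 0.1 gave Lsr -0.052 at 50 µg. Without replicate 3 of the tumor groups, Lsr was 0.064 against brain, and Abcg2 was -0.11 and Slco1a4 -0.13 at 50 µg. By the agent tag, Abcg2 was -0.14 and Slco1a4 -0.28 at 50 µg, and Abcb1a -0.049 and Lsr -0.34 at 100 µg. Without 50 and 100 µg replicate 3, Abcg2 was -0.040 at 50 µg. With each library left out, Mfsd2a ranged from -0.043 to 0.21 and Lsr from -0.71 to 0.096 against brain, and at 50 µg Abcg2 ranged from -0.040 to 0.25, Mfsd2a from -0.15 to 0.16 and Lsr from -0.44 to 0.81.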
